A study of Oryza sativa with 2 samples.

Results

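Genes that move phosphate and metals across membranes, or that make the compounds which bind metals, were examined in the developing collar of rice, where the leaf blade meets the sheath. Members were the probe sets of a single gene whose symbol or synonym was a Pht1, PHO1, SPX, NAS, NAAT, YSL, Nramp, IRT, ZIP, HMA or IRO name followed by its number or suffix. The rule found 73 probe sets of 55 genes, out of 57194 probe sets that are not controls and 17905 genes with a probe set of their own. Of these genes, 16 belong to phosphate (Pht1, PHO1, SPX), with 29 probe sets, and 39 to the metal families, with 44 probe sets. The second group is called iron and zinc here, although some of its members carry manganese or copper.

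The groups were antisense OsLIC plants and wild type plants, with 1 array each. Antisense plants of line 2, a single transgenic line, carry the OsLIC cDNA in reverse orientation under the maize ubiquitin1 promoter, and the wild type, whose cultivar is not given in the sources used here, was grown in the same field. Each array took RNA pooled from 30 collars at heading, 1 collar per plant. The plants therefore cannot be told apart within an array, and there is no spread between samples. No difference was therefore tested for significance or checked in a replicate, and having 1 array per condition limits how precise any ratio is.

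The values are GCOS signals, 1 per probe set and array, on a linear scale on which each array was brought to an overall intensity of 500. The log2 ratio is that of the antisense label over the wild type label, with signals under 20 set to 20. A probe set counted as measured when the brighter array reached a signal of 100, and as higher or lower from a log2 ratio of 1 or -1, which is 2-fold. The authors reported, by immunoblot of young stems, that OsLIC protein was suppressed in their antisense lines. On these arrays OsLIC itself had a signal of 2069 under the antisense label against 220 under the wild type label. The signal of the targeted gene was thus 9.41-fold higher under the antisense label, and what its probes read of the antisense transcript was not checked. Directions are therefore those of the labels, and values given under antisense or under wild type are those of the arrays so labelled. The median signal was 69.7 under the antisense label and 67.2 under the wild type label, and 25040 probe sets under antisense and 24901 under wild type had at least 100. OsLG1, a gene needed to form ligule and collar, had signals of 641 under the antisense label and 494 under the wild type label. Of 6 probe sets of shoot meristem genes 2 were measured, with log2 ratios of -0.51 for OSH71 and 0.35 for OSH43. A list of root genes found no probe set. Of 13 probe sets of floral MADS-box genes 4 were measured and 1 was lower, and the summed signal of the 13 was 7571 under antisense and 11328 under wild type. Most of that sum came from OsMADS18, which the list took in through the synonym MADS2. Without it, left out after its values were seen, the sum was 1515 under antisense and 1555 under wild type, with 1 of 3 measured probe sets lower. The 5 measured probe sets of photosynthesis genes went both ways, with log2 ratios of 0.79, 0.60 and -0.39 for rbcS and -1.23 for one probe set of CAB2R. The other of CAB2R was just within 2-fold, with 12844 under antisense and 25685 under wild type. Their list summed to 48273 under antisense and 58238 under wild type. The part of such differences in the results below was not tested. In whole collars, fewer cells of a type and less RNA per cell cannot be told apart.

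Plants take up inorganic phosphate through the Pht1 proton-coupled transporters of the plasma membrane, pass it to the xylem with the help of PHO1 exporters, and adjust both to supply through SPX proteins, which sense inositol pyrophosphates and hold back PHR transcription factors. Grasses acquire iron by secreting phytosiderophores. Nicotianamine synthase (NAS) joins S-adenosylmethionine into nicotianamine, nicotianamine aminotransferase (NAAT) converts it on the way to deoxymugineic acid, and YSL proteins carry metals bound to either compound. Nramp, IRT and ZIP proteins carry free divalent metal ions, HMA proteins pump zinc, cadmium or copper, and IRO factors regulate the iron deficiency response.

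Of the 73 member probe sets 45 were measured, covering 38 of the 55 genes, while 17 genes had no probe set that reached a signal of 100 on either array. Phosphate accounted for 6 of these 17 genes and iron and zinc for 11. On both arrays the minimum was reached by 40 of the 45, and 5 passed on 1 array alone. Between the arrays, 2-fold or more separated 6 member probe sets, of which 4 (of 3 genes) were higher under antisense and 2 (of 2 genes) were lower. Over all 26697 measured probe sets 5.28% were higher and 4.64% were lower by as much, against 8.89% and 4.44% of the members. A share of 8.89% rests on 4 probe sets, 2 of which belong to 1 gene, OsPht1;11, which is also named OsPT11. The members' median log2 ratio was 0.14, beside -0.01 over all measured probe sets, and the range between the quartiles of the ratios was 0.71 for the members and 0.55 for all.

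**Figure D1:**
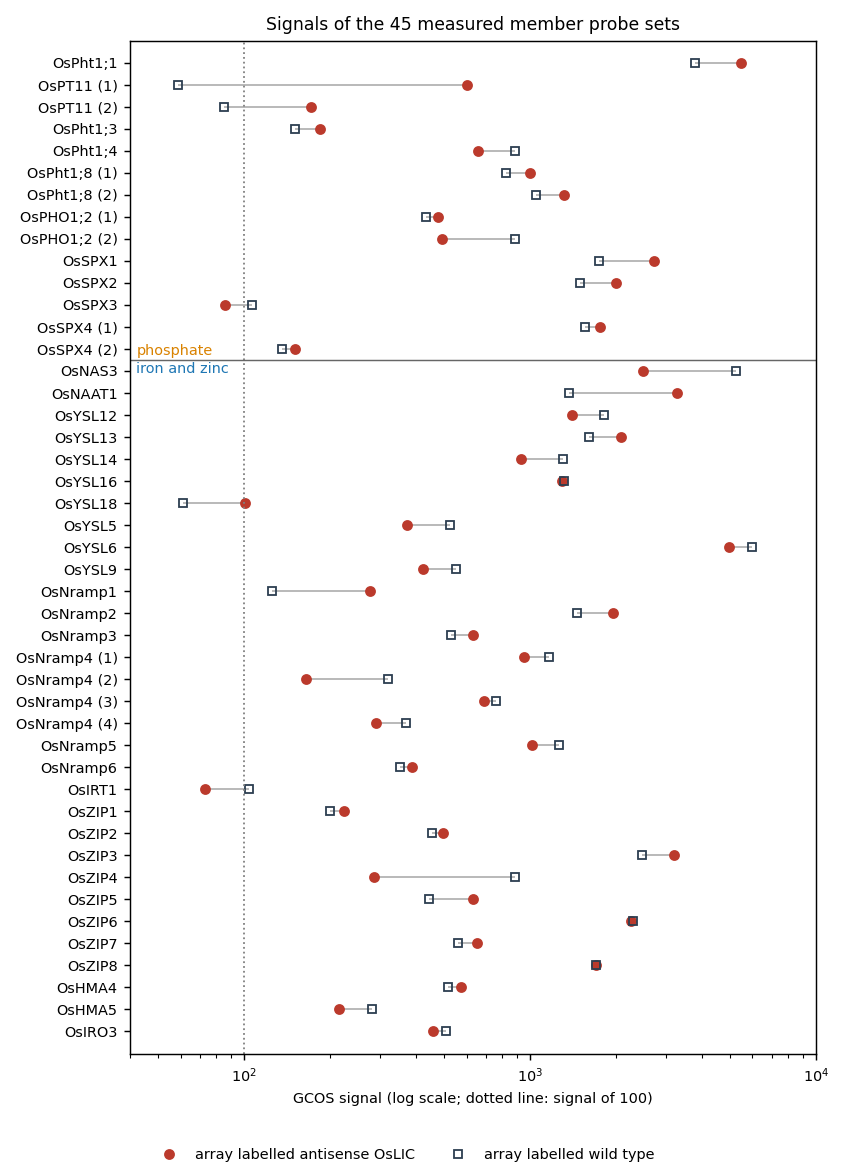
Signals of the 45 measured member probe sets on a log axis, filled circles for the array labelled antisense OsLIC and open squares for the array labelled wild type, with the phosphate genes above the line and the iron and zinc genes below it. Numbers in brackets tell apart several probe sets of a gene. The widest gap is that of OsPT11, at 602 under the antisense label and 58.6 under the wild type label, and most other pairs lie close together.

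A probe set annotated as OsPT11 showed the largest difference of any measured member. Whether it reads this gene was not checked, since no probe sequence was used here. This transporter is known in rice from roots, where it takes up phosphate delivered by arbuscular mycorrhizal fungi. This brightest probe set of the gene had a signal of 602 under the antisense label and 58.6 under the wild type label. The log2 ratio was 3.36, a 10.3-fold difference, and 47th in rank from the top of the 26697 measured probe sets. A second probe set, whose suffix _x_at marks probes that can bind related transcripts, had signals of 171 under antisense and 85.1 under wild type and a log2 ratio of 1.01. The other 2 probe sets of the gene stayed under 20 on both arrays, with signals of 10.8 under antisense and 5.19 under wild type for one, and 7.11 under antisense and 5.12 under wild type for the other. The 4 probe sets thus do not give a single reading. Neither of the measured ones reached 100 on the array labelled wild type, so both entered through the array on which they were bright.

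The remaining Pht1 genes lay within 2-fold. OsPht1;1, a phosphate transporter of rice that is expressed in roots and shoots, had signals of 5462 under the antisense label and 3787 under the wild type label (log2 ratio 0.53). OsPht1;8, a high-affinity transporter, had 998 under antisense and 825 under wild type by one probe set and 1317 under antisense and 1054 under wild type by another, with log2 ratios of 0.28 and 0.32. Another probe set of the gene stayed under 20 on both arrays, with 3.00 under antisense and 6.30 under wild type. OsPht1;3 had signals of 184 under the antisense label and 151 under the wild type label (0.29). OsPht1;4 was the one measured Pht1 gene with a negative ratio, with 658 under the antisense label and 887 under the wild type label (-0.43). OsPht1;2, OsPht1;6, OsPht1;7 and OsPht1;12 were not measured, with signals of at most 59.6 on either array. In all, 6 of 7 measured Pht1 probe sets had a positive ratio, beside 48.5% of all measured probe sets, and the median was 0.32. For the 2 of OsPT11 the sign was fixed in advance, since they reached 100 under antisense alone. Another 2 of the 6 belong to 1 gene, OsPht1;8.

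Of the PHO1 genes, OsPHO1;2, which exports phosphate toward the xylem, had probe sets that disagreed. The brighter one had signals of 493 under the antisense label and 889 under the wild type label, a log2 ratio of -0.85. The dimmer one, of suffix _x_at, had 476 under antisense and 432 under wild type, a log2 ratio of 0.14. Another probe set of the gene stayed under 20 on both arrays. OsPHO1;3 was dim, at 5.58 under the antisense label and 51.8 under the wild type label, and was not measured.

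None of the 5 measured SPX probe sets was past 2-fold, where 5.28% were higher and 4.64% lower over all measured probe sets. A positive ratio was found for 4 of the 5, 2 of them of OsSPX4, beside 48.5% of all measured probe sets. With so few probe sets, neither count sets the family apart. OsSPX1, which binds and restrains PHR2 in the nucleus when phosphate is ample and whose transcript is raised by phosphate starvation, had signals of 2724 under the antisense label and 1748 under the wild type label (log2 ratio 0.64). OsSPX2, of the same role, had 1992 under antisense and 1496 under wild type (0.41). OsSPX4, which retains PHR2 in the cytoplasm, had 1751 under antisense and 1559 under wild type by one probe set (0.17) and 150 under antisense and 136 under wild type by another (0.15). OsSPX3 was at the minimum, with 85.9 under the antisense label and 106 under the wild type label (-0.31), and OsSPX5 was not measured.

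In a wider list of other phosphate genes, log2 ratios lay between -0.31 and 0.23 with a median of -0.04. None of its 9 measured probe sets was past 2-fold, and with 5.28% higher and 4.64% lower over all probe sets a count of none in 9 does not set the list apart. The PHR transcription factors, which switch on phosphate starvation genes, had log2 ratios of -0.08 for OsPHR1, 0.03 and -0.04 for the probe sets of OsPHR2, and -0.09 for OsPHR3. OsMGD3, of the galactolipid synthases that replace phospholipids under phosphate shortage, had the ratio furthest from 0, with signals of 1209 under the antisense label and 1497 under the wild type label (-0.31), while OsMGD1 had -0.02. The symbol patterns of this list also took in a lipid transfer protein gene named PAPI (0.23) and the growth regulating factor gene OsGRF4, once named PT2 (-0.04), which are not phosphate genes. PAP2, whose role the annotation does not give, had -0.25.

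**Figure D2:**
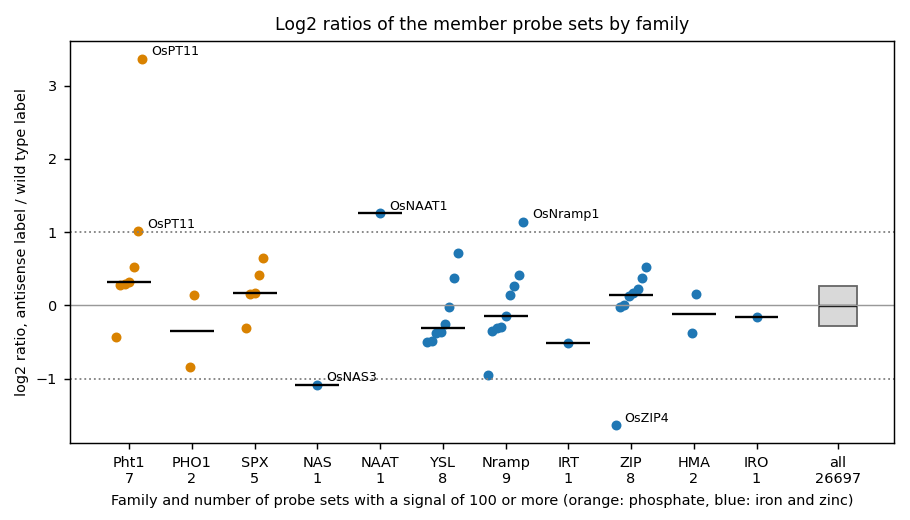
Log2 ratios (antisense label over wild type label) of the measured member probe sets by family, orange for phosphate and blue for iron and zinc, with a black line at each family's median. The grey box is the interquartile range of all 26697 measured probe sets, and dotted lines mark 2-fold. Phosphate probe sets lie mostly above 0, with 1 probe set annotated as OsPT11 (3.36) far above the rest and the other of that gene at 1.01. The iron and zinc families hold points past 2-fold on both sides.

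The signals of OsNAS3 and OsNAAT1, genes of consecutive steps in the synthesis of the metal chelators, differed in opposite directions. OsNAS3, the nicotianamine synthase of rice that is known from shoots as well as roots, had a signal of 2477 under the antisense label and 5272 under the wild type label. It was thus 2.13-fold lower under the antisense label (log2 ratio -1.09). OsNAAT1, the aminotransferase of the next step, had a signal of 3266 under the antisense label and 1367 under the wild type label, 2.39-fold higher (log2 ratio 1.26). Each is read by 1 probe set that is bright on both arrays. Signal minima and the choice of probe sets cannot change the ratio of a single probe set. Under median centring, quantile or loess normalization and a pseudocount of 50, which can, it lay between -1.10 and -1.07 for OsNAS3. For OsNAAT1 it lay between 1.23 and 1.27. These ranges do not show how far a replicate would differ. OsNAS1 and OsNAS2, adjacent genes known from iron-deficient roots, were not measured. OsNAS1 had 37.1 under the antisense label and 2.53 under the wild type label, and OsNAS2 had 13.5 under antisense and 26.6 under wild type. SAMS2, an S-adenosylmethionine synthetase gene and thus of the step before NAS, had signals of 6690 under antisense and 7288 under wild type (-0.12) by its measured probe set.

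None of the 8 measured YSL probe sets was past 2-fold. Beside 5.28% higher and 4.64% lower over all measured probe sets, that count does not set the family apart. The log2 ratios of the 8 ran between -0.50 and 0.71 with a median of -0.32. Of the 8, 6 were negative, as were 13743 of all 26697 measured probe sets. OsYSL6, a manganese transporter, was the brightest of these probe sets, with 4985 under the antisense label and 5974 under the wild type label (-0.26). OsYSL16, which carries copper bound to nicotianamine in the phloem, was near equal on the arrays, with 1296 under antisense and 1320 under wild type (-0.03). OsYSL5 had 370 under antisense and 524 under wild type (-0.50) and OsYSL14 931 under antisense and 1302 under wild type (-0.48). OsYSL13 was positive, with 2076 under the antisense label and 1609 under the wild type label (0.37). OsYSL18, an iron(III)-deoxymugineic acid transporter, had a ratio of 0.71 from signals of 100.4 under antisense and 61.4 under wild type and passed on the antisense array alone. OsYSL9 and OsYSL12 had ratios of -0.38 and -0.37. Another 7 YSL genes (OsYSL1, 4, 7, 8, 10, 11 and 15) were not measured, and OsYSL15 is the one known to take up iron(III)-deoxymugineic acid in roots. OsYSL10 and OsYSL8 were uneven under the minimum, with 64.8 and 61.8 under the antisense label against 9.87 and 3.80 under the wild type label.

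OsNramp1, which transports iron and cadmium, was the 1 Nramp gene past 2-fold, with a signal of 276 under the antisense label and 125 under the wild type label. It was 2.20-fold higher (log2 ratio 1.14), and adding 50 to both signals instead of the floor gave 0.90, under 2-fold. OsNramp5, the manganese and cadmium uptake transporter of rice roots, had 1013 under the antisense label and 1262 under the wild type label (-0.32). OsNramp3, which distributes manganese in nodes, had 634 under antisense and 530 under wild type (0.26). OsNramp2 and OsNramp6 had ratios of 0.41 and 0.14. The gene annotated as Nramp4 has 5 probe sets, of which 4 were measured with negative ratios of -0.14 to -0.95. The most negative of these had signals of 165 under the antisense label and 320 under the wild type label, and the brightest had 952 under antisense and 1170 under wild type (-0.30).

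Of the ferrous iron transporters, OsIRT1 had a signal of 73.1 under the antisense label and 104 under the wild type label (log2 ratio -0.51), and OsIRT2 was not measured, with 25.5 under antisense and 37.5 under wild type. Both are known from iron-deficient roots and both were dim on these arrays.

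OsZIP4, a zinc transporter that is induced by zinc deficiency in rice shoots and roots, was the most negative of all measured members. Its signal was 284 under the antisense label and 885 under the wild type label, 3.11-fold lower (log2 ratio -1.64). It was 476th in rank from the bottom of the 26697 measured probe sets. The other 7 ZIP genes lay between -0.03 and 0.52. OsZIP5 had 634 under the antisense label and 444 under the wild type label (0.52), and OsZIP3, which unloads zinc from the xylem in nodes, had 3185 under antisense and 2470 under wild type (0.37). OsZIP6 and OsZIP8 were nearly identical on the arrays, OsZIP6 with 2259 under antisense and 2300 under wild type, OsZIP8 with 1708 under antisense and 1708 under wild type. OsZIP7 had a ratio of 0.22, OsZIP1 one of 0.17 and OsZIP2 one of 0.13. OsZIP4 thus stood apart from a family whose median was 0.15.

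The metal pumps and the iron regulator were within 2-fold. OsHMA4, which moves copper into the vacuole, had signals of 572 under the antisense label and 516 under the wild type label (log2 ratio 0.15). OsHMA5, which loads copper into the xylem, had 215 under antisense and 280 under wild type (-0.38). OsHMA2, a zinc and cadmium pump, was not measured, at 49.6 under the antisense label and 31.9 under the wild type label. OsIRO3, a transcription factor that represses iron deficiency genes, had 458 under antisense and 510 under wild type (-0.16).

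**Figure D3:**
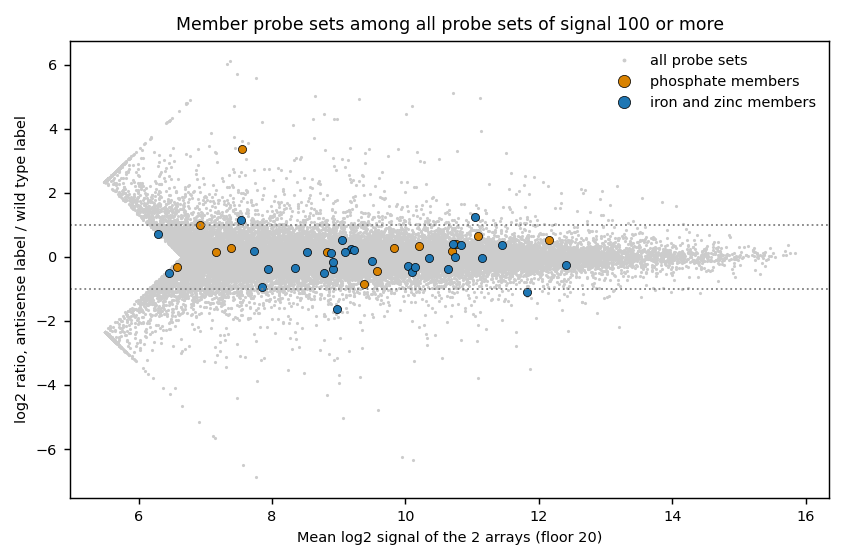
Log2 ratio (antisense label over wild type label) of each of 26697 measured probe sets against its mean log2 signal on the arrays, with members in colour and dotted lines at 2-fold. The cloud narrows toward bright signals, and OsNAAT1 (1.26) and OsNAS3 (-1.09) are the members past 2-fold on the bright side, while OsPT11 (3.36), OsNramp1 (1.14) and OsZIP4 (-1.64) are dimmer.

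The share of probe sets past 2-fold depended on brightness. Among probe sets that reached 500 on the brighter array, 2.54% of 15232 were higher and 2.01% were lower, and of the 31 members among them 2 were higher (OsPT11 and OsNAAT1) and 2 were lower (OsNAS3 and OsZIP4). OsPT11 reached 500 under antisense alone (602, against 58.6 under wild type) and OsZIP4 under wild type alone (885, against 284 under antisense). Each thus entered through the array on which it was bright. At a minimum of 1000, 2.40% of all were higher and 1.77% lower, and OsNAAT1 and OsNAS3 were the members past 2-fold out of 18.

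Set side by side, 2 of 14 measured phosphate probe sets were higher, both of OsPT11, and none was lower, while of 31 measured iron and zinc probe sets 2 were higher and 2 lower. These are 14.3% and 0% for phosphate and 6.45% in each direction for iron and zinc, to be read beside the 5.28% and 4.64% of all probe sets. Both OsPT11 probe sets entered through the array labelled antisense alone, where they were high. With 100 required on both arrays, 0 phosphate probe sets were higher and 0 lower, and the phosphate median was 0.28. For iron and zinc 2 were then higher and 2 lower, beside 2.24% and 1.96% of all probe sets. The median log2 ratio was 0.28 for phosphate and -0.03 for iron and zinc. Positive ratios were found for 11 of the 14 phosphate probe sets and 13 of the 31 iron and zinc probe sets, where 48.5% of all measured probe sets were positive. Passing on 1 array alone fixed the sign of 3 phosphate probe sets and of 2 of iron and zinc. The 3 were 2 of OsPT11, which had to be positive, and that of OsSPX3, which had to be negative. OsPht1;8 and OsSPX4 each gave 2 of the 11. With 1 probe set per gene, the brightest, the medians were 0.30 and -0.01. Whether the groups differ cannot be tested with 1 array per condition, and probe sets of a gene are not independent.

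Among other genes of metal transport and binding, 1 of 34 measured probe sets was higher and 4 were lower, with a median log2 ratio of -0.13, beside 5.28% and 4.64% and a median of -0.01 over all. COPT1, a copper transporter, had a signal of 153 under the antisense label and 392 under the wild type label, 2.57-fold lower (log2 ratio -1.36). OsVIT1, which carries iron and zinc into the vacuole, had 139 under antisense and 305 under wild type, 2.19-fold lower (-1.13, and -0.91 with a pseudocount of 50). OsVIT2, of the same role, had 772 under antisense and 1089 under wild type (-0.50). IDEF1, a transcription factor that senses iron status, had a ratio of -0.04. OsMTP1, OsMTP3 and OsMTP5, of the metal tolerance proteins that move metals out of the cytosol, had ratios of 0.27, 0.19 and 0.66. Mitochondrial import receptor TOM20 was also taken in by the symbol patterns (0.09 and -0.11) and is no metal gene, and the roles of tom1 (0.05) and tom2 (-0.16 and 0.22) are not given by the annotation.

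Metallothioneins, small cysteine-rich proteins that bind copper and zinc, made up 16 of these 34 probe sets. All 12 measured probe sets of the type 2 genes MT2A, MT2B and MT2C had negative ratios, with a median of -0.51, and the 4 of the other genes were positive. That split was drawn after the values were seen. Of the type 2 probe sets 2 were past 2-fold, and both are annotated as MT2B. The brighter had 9576 under the antisense label and 19720 under the wild type label (-1.04), and the dimmer had 32.2 under antisense and 116 under wild type (-1.85). The brightest reading of MT2B was 33623 under antisense and 44428 under wild type (-0.40). That of MT2A was near equal, with 33669 under antisense and 34302 under wild type (-0.03). Another MT2A probe set, under the minimum, had a ratio of 1.01 from 54.7 under antisense and 27.1 under wild type. MT1A had 30355 under the antisense label and 19130 under the wild type label (0.67), and OsMT1c, annotated as MT4C, was 3.66-fold higher from dim signals of 109 under antisense and 29.8 under wild type (1.87). Metallothionein transcripts are alike in sequence and many of these probe sets carry a suffix of shared probes, so they cannot be taken as separate readings.

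**Figure D4:**
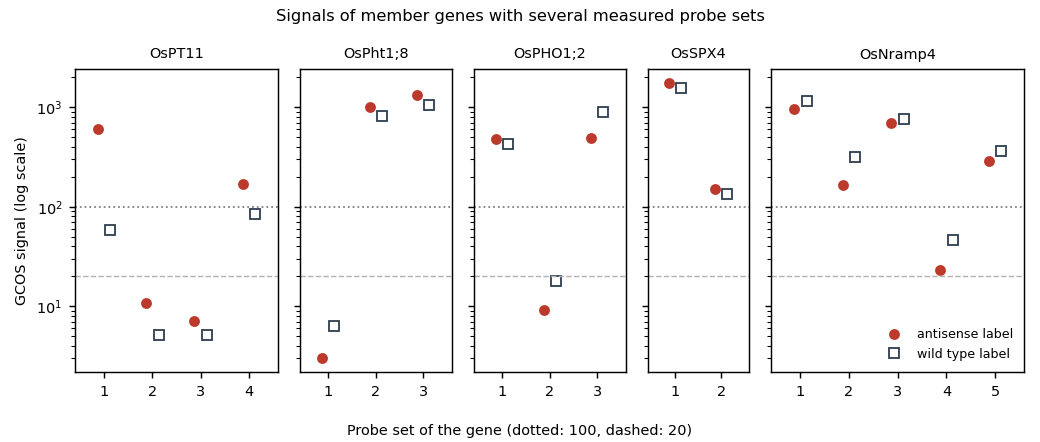
Signals of every probe set of the 5 member genes that have at least 2 measured ones, on a log axis, with filled circles for the array labelled antisense OsLIC left of open squares for the array labelled wild type. Dotted and dashed lines mark signals of 100 and 20. The probe sets of OsSPX4 and OsPht1;8 that reach 100 move alike, while the ratios of OsPHO1;2 (-0.85 and 0.14) differ in sign.

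Probe sets of the same gene are the one repeat reading these arrays hold. Of 10 member genes with several probe sets, 5 had at least 2 that were measured. The signs agreed for 4 of these 5 genes, the exception being OsPHO1;2. For OsPT11, 1 of the 4, this was fixed in advance. Both of its measured probe sets reached 100 under antisense alone and so had to have a positive ratio. The gap between the lowest and the highest log2 ratio of a gene was 0.02 for OsSPX4, 0.05 for OsPht1;8, 0.81 for OsNramp4, 0.99 for OsPHO1;2 and 2.35 for OsPT11. Of the 5 genes past 2-fold, OsPT11 was the one with such a second reading.

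Several members lie beside each other in the genome, by the order of genes in the RefSeq table of the rice assembly. Of 11 such pairs, with at most 5 genes in between, 5 had a measured probe set for both genes, and in 3 of these 5 pairs the ratios had the same sign. With 48.5% of all measured probe sets positive, 3 of 5 does not set such pairs apart. The adjacent OsPht1;3 and OsPht1;8 had 0.29 and 0.32 by their brightest probe sets, and the adjacent OsYSL6 and OsYSL5 had -0.26 and -0.50. The adjacent OsYSL13 and OsYSL12 differed in sign, at 0.37 and -0.37. OsNramp5 and OsNramp1, with 5 genes between them, had -0.32 and 1.14, so that the higher signal of OsNramp1 was not shared by its neighbour.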

How the data were processed

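RNA of pooled rice collars was hybridised to the Affymetrix Rice Genome Array, 1 array per condition. The deposited values are linear signals, which the authors computed per probe set with GCOS (version not given in the sources used here) and scaled to an overall intensity of 500 per array. The 2% trimmed mean was checked and is 500.1 on both arrays. Detection calls were not used. Of 57381 probe sets 187 are controls. The annotation gives a single gene to 22436 of the others, more than 1 to 95 and no gene to 34663, mostly by locus numbers, and all 17905 genes were matched by gene ID to the RefSeq table of assembly ASM3414082v1, used for synonyms and gene order only.

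Signals under 20 were set to 20 and log2 ratios were taken without further normalization. Of 66 genes with a family name in RefSeq, 11 had no probe set of their own here and were not analysed. In RefSeq 5 members carry more than 1 family name and are called OsZIP5, OsZIP7, OsZIP8, OsIRO3 and OsPht1;4 here. OsHMA5 is also a synonym of the HMA9 gene, which had no probe set of its own here. Every member could be named, those past 2-fold and the 2 furthest from 0 of each family with signals. The members and lists were chosen with earlier results of these data known. Motifs in promoters were planned and not run, since no promoter sequences were used here. Alternatives were median centring, quantile and loess (fraction 0.4) normalization, a pseudocount of 50, other signal minima, a threshold of 3-fold, 1 value per gene (brightest probe set or mean), and leaving out the suffixes _x_at and _s_at. The rule for ratios and 2-fold calls was tested on simulated arrays with little noise. The other steps were not tested so, and the simulation does not measure the error of these arrays. Python 3.11.15, pandas 2.3.3 and statsmodels 0.14.6 were used.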

Additional observations from a re-analysis of the deposited data

How the results depend on the processing

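The median log2 ratio was 0.14 for the members, 0.28 for phosphate and -0.03 for iron and zinc. With no signal minimum all 3 medians were 0, where signals under 20 on both arrays give a ratio of 0. At a minimum of 500 the members' median was -0.00, phosphate 0.32 and iron and zinc -0.08. Without the suffix _x_at or _s_at these were 0.06, 0.34 and -0.03. Under the other alternatives phosphate lay between 0.24 and 0.30 and iron and zinc between -0.08 and -0.01. Counts past the threshold were small, with 4 higher and 2 lower. With a pseudocount of 50, a signal minimum of 500, or 100 on both arrays, 2 members were higher. With a 3-fold threshold 1 was higher (OsPht1;11) and 1 lower (OsZIP4), and for iron and zinc 0 were higher and 1 lower. For phosphate 1 probe set in place of 2 was higher after quantile or loess normalization, with a pseudocount of 50, at a signal minimum of 200 or 500, at 3-fold, with the brightest probe set or the mean per gene, and without the suffix _x_at or _s_at, and 0 were with 100 required on both arrays. With no minimum or one of 50, 1 phosphate probe set was lower (OsPHO1;3) and 4 iron and zinc probe sets were higher, and with a pseudocount of 50 or a minimum of 500 1 was. No ratio past 2-fold changed sign. The brightest probe set of OsPht1;11 had 2.59 with a pseudocount of 50, and its second one was under 2-fold after quantile or loess normalization and with that pseudocount, 0.71 at the lowest. Over all probe sets, 5.28% higher and 4.64% lower became 8.50% and 7.39% with no signal minimum, 10.6% and 9.20% at 50, 3.27% and 2.76% at 200, 2.54% and 2.01% at 500, 2.24% and 1.96% with 100 on both arrays, 3.23% and 2.62% with the pseudocount, and 2.49% and 1.90% at 3-fold. Matching by symbol alone finds no member and gave no value. No paired analysis was possible because each condition has 1 array. Dim signals and the single array per condition limit the precision.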
